A study of Mus musculus with 24 samples.

Results

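The genes described here are the Toll-like receptors, with the lipopolysaccharide co-receptors Cd14 and Ly96 and the adaptor Myd88, as measured in mouse macrophages under 4 activation states. The set is defined by gene symbol, as the rows whose symbol in capitals is CD14, LY96, TLR1, TLR2, TLR3, TLR4, TLR6, TLR7, TLR9 or MYD88 (written below as mouse symbols). Of these 10 genes, 9 have a row in the normalized table of 18132 genes, and Tlr9 was not analysed here. The macrophages had been grown in culture from bone marrow of female Balb/c mice aged 8 to 10 weeks. They were kept for 24 h in medium alone, with interleukin-4 (IL-4, the reference stimulus of alternative activation), with interferon-gamma (IFN-gamma, the reference stimulus of classical activation) or with isoproterenol, a drug that activates beta-adrenergic receptors. The labels name no genetic change in any group and give no dose. Per the series title and design text, the study asked where beta-adrenergic stimulation places macrophages relative to the IL-4 and IFN-gamma states and which regulators act. Each of the 4 groups holds 6 arrays, 2 from each of 3 experiments, and the main tests used the mean of each such pair, which leaves n = 3 per group. Whether a pair, or the experiments themselves, came from separate cultures or animals is not in the labels, so that p-values reflect the spread between these 3 experiments and nothing wider.

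Toll-like receptors are transmembrane proteins that recognise conserved molecules of microbes and pass the signal on through adaptor proteins to NF-kB, MAP kinases and interferon regulatory factors. At the cell surface, Cd14 hands lipopolysaccharide of Gram-negative bacteria to a complex of Tlr4 and Ly96 (also called MD-2), whereas Tlr2 recognises bacterial lipopeptides as a pair with Tlr1 or Tlr6. Tlr3, Tlr7 and Tlr9 sit in endosomes and bind double-stranded RNA, single-stranded RNA and unmethylated CpG DNA, respectively. Myd88 is the adaptor of all of these receptors except Tlr3, which signals through Ticam1 (TRIF).

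The markers of the labelled cell type were present: all 7 macrophage markers were above the background limit on all 24 arrays. Of the stromal markers, 5 of 5 were above it on fewer than 6 arrays, as were 5 of 7 T and NK cell markers and 4 of 4 measured erythroid and megakaryocyte markers. The same held for 3 of 4 measured B cell markers. It held for only 3 of 7 dendritic cell, 2 of 7 measured neutrophil and granulocyte precursor and 2 of 4 measured mast cell and basophil markers. Absence of these other cells is therefore not shown. One array stood apart from its label. Over the 10363 tested genes, the second IFN-gamma array of experiment 1 correlated at r = 0.9786 with its partner array but at 0.9961 and 0.9956 with the IFN-gamma arrays of experiment 2. Partner arrays correlated at 0.997 to 0.998 in all other cases. For Cd14, Tlr1, Tlr2, Tlr6, Tlr7 and Myd88, the change with IFN-gamma against medium is given below with and without this array. Without it, the log2 fold change with IFN-gamma was -0.28 for Ly96, 0.09 for Tlr4 and 0.40 for Tlr3. Comparisons of IL-4 or isoproterenol with IFN-gamma are given with it, and no gene of the set lost or gained a call there without it.

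The promoters of the receptors and the adaptor were read from RefSeq (GRCm38.p6) for letters that match sites of the factors downstream of the 3 stimuli. Entries were found for Tlr1, Tlr2, Tlr3, Tlr6, Tlr9 and Myd88. The search took the 250 bases before each annotated start on both strands for GAAANNGAAA (ISRE, bound by interferon regulatory factors), TTCNNNGAA (GAS, the gamma-activated site), TTCNNNNGAA (the STAT6 site), TGACG (the CRE half-site), GGGNNNNNCC (NF-kB) and GAGGAA (ETS core). Among 32851 mouse promoters, 2.98% held the ISRE letters, 7.02% GAS, 5.85% the STAT6 site, 17.8% the CRE half-site, 45.8% NF-kB and 23.3% the ETS core. Myd88 and Tlr1 are shown in full outside their annotated transcripts, because both rose with IFN-gamma (below) and their promoters differ in these letters. In the Myd88 promoter (chr9:119340019-119340268, minus strand) the capitals mark a GAS match 46 to 38 bases before the start, which overlaps an ISRE match 40 to 31 bases before it. In the Tlr1 stretch (chr5:64933601-64933808, minus strand) no base is in capitals, since none of the 6 motifs was found there.
Myd88: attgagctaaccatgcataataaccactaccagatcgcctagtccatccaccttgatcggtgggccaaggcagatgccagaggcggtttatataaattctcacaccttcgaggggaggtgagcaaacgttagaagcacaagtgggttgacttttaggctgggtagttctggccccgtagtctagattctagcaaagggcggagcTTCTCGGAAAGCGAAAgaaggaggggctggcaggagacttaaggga
Tlr1: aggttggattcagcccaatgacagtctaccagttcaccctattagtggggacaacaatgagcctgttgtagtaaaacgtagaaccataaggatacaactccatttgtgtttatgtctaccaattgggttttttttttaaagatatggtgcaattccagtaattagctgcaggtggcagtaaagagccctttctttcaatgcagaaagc
The remaining Tlr1 bases, nearer to the start, held the ETS core, and a second annotated start of Tlr1 had the GAS match TTCATCGAA 228 to 220 bases before it. Tlr6, which lies near Tlr1 on chromosome 5, had 2 overlapping ISRE matches before its first listed start, TTTCTCTTTC at 116 to 107 bases and TTTCACTTTC at 110 to 101 bases. Its second start had the NF-kB match GGGTAATTCC and a CRE half-site. The Tlr2 promoter held overlapping NF-kB matches, GGGGAATTCC at 173 to 164 bases and GGGAATTCCC at 172 to 163 bases. Tlr3 also held NF-kB matches, GGGAGTTTCC at 211 to 202 bases and GGCCGGTCCC at 23 to 14 bases, and Tlr9 an ETS core. Of the 250 bases searched, all of both Tlr6 windows, of the Tlr3 window and of the second Tlr1 window, and 216 of the Tlr2 window, lie inside the annotated gene. No entry of these genes matched the STAT6 letters. A match of letters shows neither binding nor use of a site, and these motifs were chosen with the expression results known.

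By the number of genes that passed the test, the set differed from medium more often with IFN-gamma than with IL-4, as did all tested genes, while the largest single change was that of Tlr2 with IL-4. Against medium, 8 of the 9 measured genes passed the test with IFN-gamma, where 42% of all tested genes did, and for 6 of 9 the arrays did not overlap, where 25.4% of all tested genes had none. Tlr1, Tlr6 and Myd88 rose, and Cd14, Ly96, Tlr2 and Tlr7 fell. The eighth, Tlr3, was near background and entered the test mainly through its IFN-gamma arrays, and without it 7 of 8 passed. With IL-4, 4 of 9 passed, against 7.57% of all tested genes, and the same number did not overlap, against 6.5%: Tlr4 rose and Cd14, Tlr2 and Tlr7 fell. With isoproterenol none of the 9 passed, against 1.24% of all tested genes. A gene passed at a Benjamini-Hochberg adjusted p under 0.05 over all tested genes in limma's two-sided test. Intensities below are the authors' normalized values on a linear scale, and fold changes come from the log2 values after background correction. They differ a little from ratios of the printed intensities, most for dim genes. Intensities of different genes depend on their probes and cannot be set against each other. RNA was taken from whole cultures, so fewer cells carrying a transcript and less transcript per cell cannot be told apart.

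**Figure D1:**
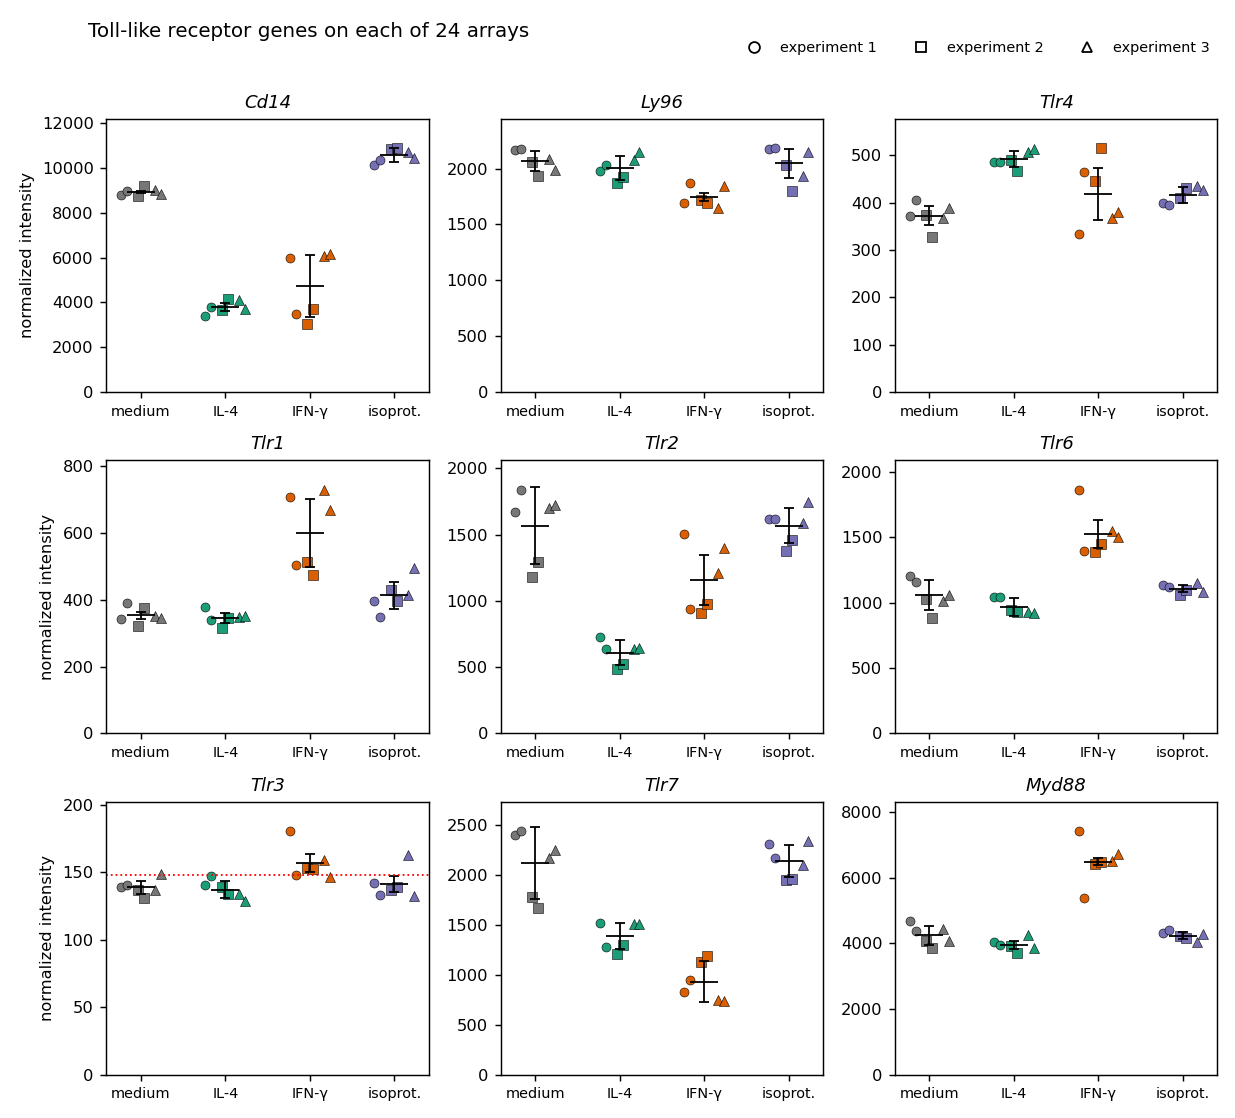
Normalized intensity (linear axis from 0) of the 9 measured genes on each array, by activator; symbols show the experiment, and bars the mean and SD of the 3 experiment means. Cd14, Tlr2 and Tlr7 lie lower with IL-4 and IFN-gamma than in medium, Tlr1, Tlr6 and Myd88 lie higher with IFN-gamma, and Tlr3 stays around the background limit (dotted line, 148.23).

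The lipopolysaccharide receptor complex did not move as a unit. Cd14, the membrane-anchored or soluble protein that binds lipopolysaccharide first, lay between 8739.9 and 9205.6 in medium, with a median of 8920.0. With IL-4 its arrays ran from 3384.8 to 4175.6 (median 3755.0), and with IFN-gamma from 3026.7 to 6174.5 (median 4845.1). All arrays of both stimuli were below every medium array. In experiment means, Cd14 went from 8937.4 ± 39.0 (SD, n = 3) in medium to 3803.0 ± 189.7 with IL-4, a 2.38-fold fall (log2 fold change -1.25, SE 0.15, limma adjusted p = 2.8e-04). With IFN-gamma it stood at 4737.8 ± 1381.0, a 1.99-fold fall (log2 -0.99, SE 0.15, limma adjusted p = 2.0e-04). The 2 stimuli thus gave falls of like size but unlike evenness: the log2 differences by experiment were -1.33, -1.22 and -1.21 with IL-4 and -0.97, -1.44 and -0.55 with IFN-gamma.

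The IFN-gamma arrays fell into 2 levels for Cd14, and the levels did not match the experiment labels. Its log2 difference from medium was -0.57 on the first array of experiment 1 and -0.57 and -0.54 in experiment 3, but -1.59 and -1.30 in experiment 2 and -1.38 on the array that stood apart. Without that array the fall was 0.86 on the log2 scale (a log2 fold change of -0.86, adjusted p = 0.0016). Cd14 did not differ by the test between IL-4 and IFN-gamma (log2 -0.26 for IL-4 minus IFN-gamma, 95% confidence interval -0.58 to 0.06, adjusted p = 0.18). That difference was 0.23 in experiment 2 and -0.36 and -0.66 in the other two, and it passed the test without experiment 2 (-0.51, adjusted p = 0.008).

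Ly96, the secreted protein that forms the lipopolysaccharide pocket together with Tlr4, changed little. Its arrays lay between 1934.0 and 2174.4 in medium (median 2072.2), between 1871.7 and 2146.9 with IL-4 (median 2004.2) and between 1646.0 and 1866.9 with IFN-gamma (median 1707.1). The IFN-gamma arrays were all below the medium arrays, while the IL-4 arrays overlapped them. The fall with IFN-gamma was 1.19-fold (log2 -0.26, SE 0.06, adjusted p = 0.0031) and of nearly equal size in each experiment (-0.30, -0.23 and -0.24). With IL-4 the log2 fold change was -0.05 (95% confidence interval -0.17 to 0.08, adjusted p = 0.74).

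Tlr4, the signalling receptor of the complex, was the 1 gene of the set that rose with IL-4. Its medium arrays ran from 326.7 to 406.4 (median 373.2) and its IL-4 arrays from 467.9 to 514.4 (median 487.9), with no overlap. The experiment means were 372.5 ± 19.6 and 491.8 ± 16.8 (SD, n = 3), a 1.40-fold rise (log2 0.48, SE 0.10, adjusted p = 0.013). It was positive in all 3 experiments (0.38, 0.55 and 0.52) and remained past the threshold without the array that stood apart (adjusted p = 0.042), but not without experiment 1 (0.53, adjusted p = 0.093) or experiment 3 (0.46, adjusted p = 0.069). With IL-4, therefore, transcripts of Tlr4 rose while those of its co-receptor Cd14 fell in the same cultures.

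With IFN-gamma Tlr4 was split by experiment. The log2 difference from medium was 0.55 in experiment 2 but 0.02 and -0.01 in experiments 1 and 3, and over all 3 it was 0.18 (95% confidence interval -0.04 to 0.41, adjusted p = 0.18). Within experiment 1 the first array lay at -0.27 and the array that stood apart at 0.31. Tlr4 was 1.23-fold higher with IL-4 than with IFN-gamma (log2 0.30, SE 0.10, adjusted p = 0.033), a difference absent in experiment 2 and lost without experiment 1 (0.26, adjusted p = 0.19) or experiment 3 (0.18, adjusted p = 0.28).

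**Figure D2:**
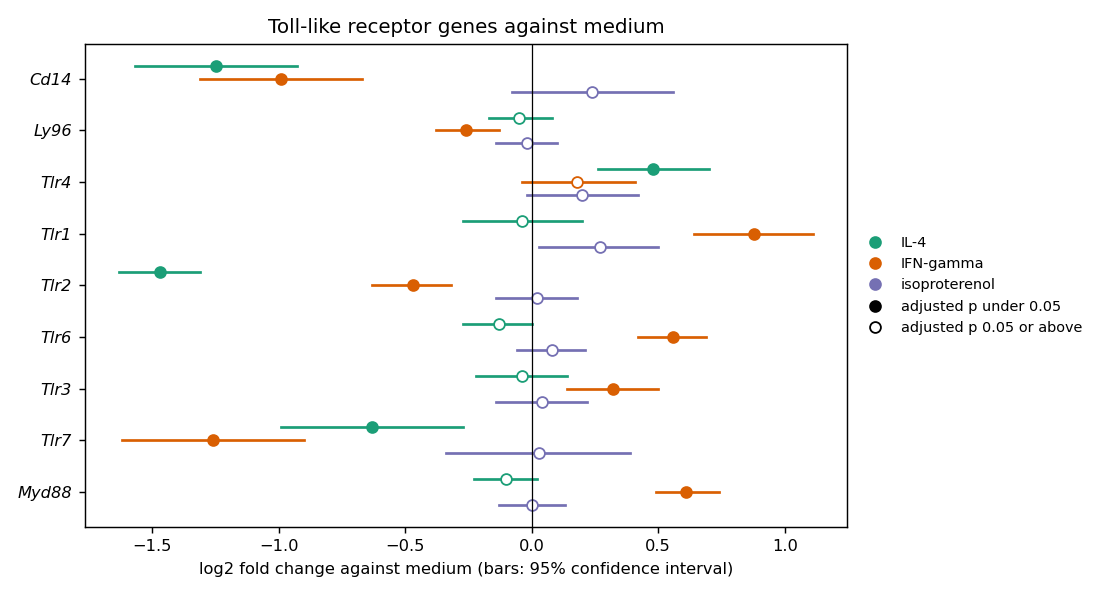
Log2 fold change against medium (horizontal axis) of the 9 measured genes with IL-4, IFN-gamma and isoproterenol; bars are 95% confidence intervals and filled points passed the test. Tlr2 with IL-4 (-1.47) and Tlr7 with IFN-gamma (-1.26) lie farthest to the left, Tlr1 with IFN-gamma (0.88) farthest to the right, and all isoproterenol points are open.

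The lipopeptide receptors were separated by the stimuli: Tlr2 fell with both cytokines, while its partners Tlr1 and Tlr6 rose with IFN-gamma. Tlr2, the subunit common to both pairs, lay between 1177.0 and 1839.6 in medium (median 1684.8) and between 488.1 and 726.0 with IL-4 (median 636.8). The IL-4 arrays were all well below the medium arrays. The 2.77-fold fall (log2 -1.47, SE 0.07, limma adjusted p = 2.9e-07) was the largest change of the set against medium, and it varied little between experiments (-1.47, -1.42 and -1.52). In medium, by contrast, the experiment means of Tlr2 differed, at 1755.6, 1233.4 and 1711.7, and the IL-4 means followed the same order (679.6, 503.9 and 643.7), with experiment 2 lowest in both.

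With IFN-gamma, Tlr2 lay between 909.9 and 1501.3 (median 1095.7) and so overlapped the medium arrays. The fall was 1.39-fold (log2 -0.47, SE 0.07, adjusted p = 2.5e-04), with -0.60, -0.41 and -0.41 in the 3 experiments. The array that stood apart had the lowest log2 difference from medium, -0.96 against -0.23 on its partner, and without it the log2 fold change was -0.35 (adjusted p = 0.0048). Tlr2 was 1.99-fold lower with IL-4 than with IFN-gamma (limma adjusted p = 5.4e-07), with no overlap of arrays, so that its order was medium above IFN-gamma above IL-4.

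Tlr1, which pairs with Tlr2 to bind triacylated lipopeptides, lay between 319.8 and 388.9 in medium (median 347.6), between 315.1 and 379.4 with IL-4 (median 346.4) and between 474.6 and 729.3 with IFN-gamma (median 590.1). Every IFN-gamma array was above every medium and IL-4 array. The rise with IFN-gamma was 1.84-fold (log2 0.88, SE 0.11, limma adjusted p = 4.3e-05), the largest rise of the set, and was 0.84, 0.62 and 1.17 in the 3 experiments. Without the array that stood apart it was 0.97 (adjusted p = 6.1e-05). With IL-4 the change in Tlr1 was -0.04 (95% confidence interval -0.27 to 0.20, adjusted p = 0.91).

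Tlr6, which pairs with Tlr2 to bind diacylated lipopeptides, moved like Tlr1. Its arrays lay between 880.0 and 1206.9 in medium (median 1044.1), between 919.3 and 1045.2 with IL-4 (median 935.7) and between 1391.3 and 1866.9 with IFN-gamma (median 1477.7). No IFN-gamma array overlapped the other two groups. The rise was 1.47-fold (log2 0.56, SE 0.06, adjusted p = 2.0e-05), with 0.47, 0.62 and 0.59 by experiment and 0.63 without the array that stood apart (adjusted p = 2.6e-05). With IL-4 Tlr6 stood at -0.13 on the log2 scale (95% confidence interval -0.27 to 0.00, adjusted p = 0.27).

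Of the endosomal receptors, Tlr7 was well above background and Tlr3 was not. Tlr7, the receptor of single-stranded RNA, lay between 1667.8 and 2440.5 in medium (median 2211.6), between 1209.4 and 1516.5 with IL-4 (median 1403.6) and between 740.9 and 1188.2 with IFN-gamma (median 891.5). The 3 groups did not overlap and stood in that descending order. The fall with IFN-gamma was 2.40-fold (log2 -1.26, SE 0.16, limma adjusted p = 7.8e-05), and without the array that stood apart it was -1.30 (adjusted p = 9.3e-05).

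The experiments disagreed in size on Tlr7. With IFN-gamma the log2 differences were -1.52, -0.60 and -1.66, and in this case the array that stood apart (-1.42) was near its partner (-1.63) and not near the experiment 2 arrays (-0.64 and -0.57). Part of the gap lay in medium, where the mean of Tlr7 was 1726.2 in experiment 2 against 2422.6 and 2211.6 in the other two, and part in IFN-gamma, where it was 1158.5 against 891.5 and 747.3. With IL-4 Tlr7 was 1.55-fold lower than in medium (log2 -0.63, SE 0.16, adjusted p = 0.041), with -0.83, -0.48 and -0.57 by experiment. This call was lost without experiment 1 (adjusted p = 0.35), without experiment 3 (0.093) and without the array that stood apart (0.055). It was also lost without the experiment term in the model (0.056), with a background offset of 16 (0.073) and with trend and robust empirical Bayes (0.066). Tlr7 was 1.55-fold higher with IL-4 than with IFN-gamma (log2 0.63, SE 0.16, adjusted p = 0.0088). That call was lost without experiment 1 (0.60, adjusted p = 0.078) or experiment 3 (0.41, adjusted p = 0.11).

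Tlr3, the receptor of double-stranded RNA, stayed around the background limit of 148.23. It exceeded that limit on 1 of 6 medium arrays, on 0 of 6 with IL-4, on 4 of 6 with IFN-gamma and on 1 of 6 with isoproterenol, and it entered the test only because these add up to the minimum of 6. Most of them are IFN-gamma arrays, the group in which it then tested higher, so its test is no support for a rise, and it dropped out when 12 arrays were required. Its arrays lay between 130.6 and 149.0 in medium (median 138.0) and between 146.5 and 180.5 with IFN-gamma (median 152.9). The fitted rise was 0.32 on the log2 scale (SE 0.08, adjusted p = 0.008), and it was lost without experiment 1 (adjusted p = 0.062) or experiment 2 (adjusted p = 0.088). Since Tlr3 was measured on only some medium arrays, the size of its 1.25-fold change is uncertain. Against IL-4, where no array was above the limit, Tlr3 also tested higher with IFN-gamma (limma adjusted p = 0.0038). That test has the same flaw as the one against medium and is no support for a rise.

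**Figure D3:**
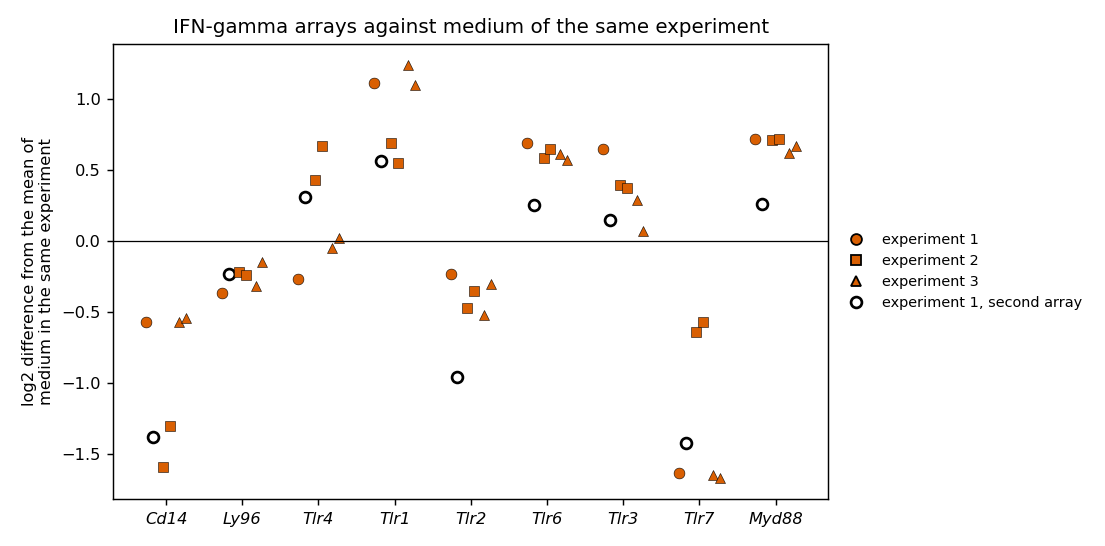
Log2 difference of each IFN-gamma array from the mean of the medium arrays of the same experiment (vertical axis) for the 9 measured genes. The open circle, the second array of experiment 1, lies with the experiment 2 squares for Cd14 (-1.38), Tlr4 (0.31) and Tlr1 (0.56), with its partner for Tlr7 (-1.42), and nearer to 0 than all other arrays for Tlr6 (0.25) and Myd88 (0.26).

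Myd88, the adaptor that carries the signal of most Toll-like receptors and of the interleukin-1 receptor, rose with IFN-gamma and with no other stimulus past the threshold. Its arrays lay between 3853.5 and 4675.1 in medium (median 4237.2), between 3718.7 and 4253.6 with IL-4 (median 3936.2) and between 5397.6 and 7423.1 with IFN-gamma (median 6485.9). All IFN-gamma arrays were above all others. The rise from 4250.6 ± 285.7 to 6488.1 ± 111.5 (SD, n = 3) was 1.53-fold (log2 0.61, SE 0.06, limma adjusted p = 5.3e-06). It was 0.49, 0.71 and 0.64 by experiment, and 0.69 without the array that stood apart (adjusted p = 2.6e-06), which had the lowest Myd88 value of the 6. The IL-4 value was -0.10 (95% confidence interval -0.23 to 0.02, adjusted p = 0.40). Of the promoters searched here, that of Myd88, shown above, was the only one with GAS and ISRE letters before the same start.

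The array slides were read from the file header, and experiments 1 and 2 each held medium, IL-4 and IFN-gamma together on 1 slide. The log2 differences printed for those experiments between medium, IL-4 and IFN-gamma are therefore also within-slide values. Isoproterenol was on the same slide as these groups in experiment 1 but not in experiment 2. With blocks for slide and experiment in the model, the IFN-gamma values were -1.09 for Cd14, -0.28 for Ly96, 0.77 for Tlr1, -0.48 for Tlr2, 0.55 for Tlr6, 0.38 for Tlr3, -1.19 for Tlr7 and 0.61 for Myd88. The IL-4 values were -1.35 for Cd14, 0.51 for Tlr4, -1.47 for Tlr2 and -0.56 for Tlr7. All of these passed the test in that fit. Unlike the main fit, it took single arrays, as did the fits within slides below. The 2 arrays of a pair then count as replicates, so these p-values rest partly or wholly on the spread within pairs. Within single slides some calls were lost: Tlr4 with IL-4 in slide 1 (adjusted p = 0.45), Tlr2 (0.082) and Tlr3 (0.12) with IFN-gamma in slide 1, and Ly96 with IFN-gamma in slide 2 (0.052).

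Marker lists moved with IL-4 and IFN-gamma as well. With IL-4, 3 of 7 macrophage markers passed as higher (Csf1r, Itgam and Adgre1) and 1 as lower (Fcgr1). The shares of all tested genes were 3.92% and 3.65%. Fcgr1 had experiment means of 610.2 in medium and 343.5 with IL-4. The Csf1r and Adgre1 calls were lost without the array that stood apart. S100a8, of the granulocyte list below, also tested lower with IL-4 (1033.0 against 1475.1 in medium). The macrophage list summed to 61184.8 to 65175.2 in medium and 53523.8 to 61178.9 with IFN-gamma, with Cd68 1.84-fold (adjusted p = 1.1e-05) and Itgam 1.57-fold lower, and Fcgr1 5.57-fold (adjusted p = 7.2e-08) and Mertk 2.82-fold higher. The summed intensity of the neutrophil and granulocyte precursor list, of which 7 of 9 genes were measured and 2 were above the limit on all arrays, was 2107.1 to 2931.4 in medium, 1886.4 to 2238.1 with IL-4, 4163.0 to 5445.6 with IFN-gamma and 2285.7 to 2911.7 with isoproterenol. In that list S100a8, a calcium-binding protein of myeloid cells, was 2.72-fold higher with IFN-gamma (adjusted p = 1.0e-06), whereas Mpo was 1.51-fold lower (adjusted p = 6.5e-04) and S100a9 1.26-fold lower (adjusted p = 6.5e-04). The dendritic cell list, with 7 of 7 genes measured and 1 above the limit on all arrays, summed to 2056.8 to 2771.2 in medium and 1751.3 to 1899.1 with IFN-gamma. In it Tcf4 was 1.56-fold lower (adjusted p = 9.5e-05), whereas Clec9a, above the limit on 1 of 6 medium and 5 of 6 IFN-gamma arrays, tested higher (adjusted p = 0.023). Clec9a entered the test mainly through those IFN-gamma arrays, so its test is no support for a rise. Cd79b of the B cell list was 1.18-fold lower (adjusted p = 0.021), and Gata2 of the mast cell and basophil list, above the limit on no IFN-gamma array, at least 1.25-fold lower (adjusted p = 6.6e-06). The summed intensities mainly follow the brightest probes and are no measure of a cell type. In medium the brightest were Lyz2 (34479.2) and Cd68 (22030.5) of the macrophage list. S100a8 (1475.1) was the brightest of the granulocyte list and Tcf4 (1494.6) of the dendritic cell list. The part of these lists in the receptor changes was not tested.

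Isoproterenol left the set near the medium level. None of the 9 genes passed limma's test, and Tlr1 was the 1 gene with an unadjusted p under 0.05, as were 1150 of all 10363 tested genes. Tlr1 had a limma adjusted p of 0.35. Its log2 fold change was 0.27 (95% confidence interval 0.03 to 0.50), with 0.03, 0.31 and 0.46 by experiment, and its arrays, 349.5 to 494.1, overlapped those of medium. Only in experiment 1 did its medium and isoproterenol arrays share a slide. With slide and experiment as blocks, fitted on single arrays, Tlr1 stood at 0.08 (limma adjusted p = 0.89). The 95% confidence intervals set bounds on what could have been missed: they ran from -0.14 to 0.18 for Tlr2, from -0.14 to 0.10 for Ly96, from -0.13 to 0.13 for Myd88 and from -0.34 to 0.39 for Tlr7. Tlr4 stood at 0.2 with the medium and isoproterenol arrays alone (limma adjusted p = 0.32) and at 0.24 with slide and experiment as blocks (0.52). Its log2 differences from medium by array were 0.05 and 0.03 in experiment 1, 0.28 and 0.37 in experiment 2, and 0.25 and 0.22 in experiment 3.

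Cd14 was the 1 gene whose isoproterenol arrays, between 10133.1 and 10896.0 (median 10574.6), did not overlap medium. Of all tested genes 2.41% had no overlap in this comparison. The log2 fold change was 0.24 (95% confidence interval -0.08 to 0.56, adjusted p = 0.60), with 0.21, 0.28 and 0.24 by experiment. The SE came from all 4 groups, among them the IFN-gamma arrays that spread widely for Cd14. With the medium and isoproterenol arrays alone the value was the same and the adjusted p was 0.12. With slide and experiment as blocks, fitted on single arrays, it was 0.04 (adjusted p = 0.97). In that fit the isoproterenol arrays of experiment 2 and the medium arrays of experiment 3, which share a slide apart from the rest of their experiments, carry no weight.

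Set directly against the cytokines, isoproterenol cultures were higher in what the cytokines had lowered. Against IL-4, 3 of 9 genes passed, where 10.7% of all tested genes did: Cd14 was 2.82-fold higher (adjusted p = 6.1e-05), Tlr2 2.80-fold higher (adjusted p = 2.5e-07) and Tlr7 1.57-fold higher (adjusted p = 0.027). The Tlr7 call was lost without experiment 1 (adjusted p = 0.21) or experiment 3 (0.057). Against IFN-gamma, 8 of 9 passed, where 44.8% of all tested genes did. Tlr7 was 2.44-fold, Cd14 2.35-fold, Tlr2 1.40-fold and Ly96 1.18-fold higher with isoproterenol. Tlr1 was 1.53-fold, Myd88 1.53-fold and Tlr6 1.40-fold lower. Tlr3 also tested lower, but with only 1 of 6 isoproterenol arrays above background, and without it 7 of 8 passed. Of these 8 calls, those of Ly96 and Tlr3 were lost when an experiment was left out, Ly96 without experiment 1 (adjusted p = 0.071) and Tlr3 without experiment 1 (0.16) or experiment 2 (0.093). These comparisons share the cytokine arrays with those against medium and are not independent of them.

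Between the 2 cytokines, 8 of 9 genes passed, where 43% of all tested genes did, and 6 of 9 did not overlap, where 26.6% of all tested genes did not. Without Tlr3, 7 of 8 passed. Myd88 was 1.64-fold, Tlr6 1.62-fold and Tlr1 1.88-fold lower with IL-4 than with IFN-gamma (adjusted p = 1.3e-06, 3.1e-06 and 2.9e-05), and no array overlapped for any of them. Ly96 was 1.16-fold higher with IL-4 (adjusted p = 0.01), a call that was lost when any 1 of the 3 experiments was left out (adjusted p = 0.051 to 0.099). Ordered by level, Myd88, Tlr1 and Tlr6 stood highest with IFN-gamma, and the test did not separate the other 3 states, although Tlr6 came close to the threshold between isoproterenol and IL-4 (log2 0.21, adjusted p = 0.051). Cd14, Tlr2 and Tlr7 stood highest in isoproterenol and medium, which the test did not separate. Below them, Tlr2 was lowest with IL-4, Tlr7 was lowest with IFN-gamma, and Cd14 was not separated between the cytokines. Ly96 was lowest with IFN-gamma, with no separation among the rest. Tlr4 stood highest with IL-4, where it exceeded medium and IFN-gamma by the test but not isoproterenol (log2 -0.28 for isoproterenol minus IL-4, adjusted p = 0.11).

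Other genes of the pathway were taken from 5 lists of 64 genes, of which 59 were tested. With IFN-gamma 19 of the 59 rose and 15 fell, with IL-4 7 rose and 6 fell, and with isoproterenol 3 rose and 0 fell. The shares of all tested genes were 16.9% and 25.1%, 3.92% and 3.65%, and 0.984% and 0.261%, in the same order. They belong beside the counts of each list below as well. The 19 include Tlr11, which entered the test mainly through its IFN-gamma arrays (below). At an unadjusted limma p under 0.05, 7 of the 59 were higher and 2 lower with isoproterenol. At that threshold 621 of all 10363 tested genes were higher and 529 lower. The median log2 fold change over the 59 was 0.03, -0.03 and 0.03, against -0.03, -0.01 and 0.00 over all tested genes. Without the array that stood apart, 22 rose and 15 fell with IFN-gamma and 3 rose and 6 fell with IL-4. Medium and isoproterenol arrays of the same experiment shared a slide only in experiment 1. Within that slide, on single arrays, 2 of the 59 were higher and 5 lower at an unadjusted limma p under 0.05. Of all 10363 tested genes 356 were higher and 282 lower there, and none passed after adjustment. The part of the slides in the isoproterenol counts was not tested.

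Of the other Toll-like receptors, 4 of 5 were measured and Tlr5 was not analysed here. Tlr12, in mouse a receptor of a protozoan profilin, was 1.96-fold higher with IFN-gamma (log2 0.97, adjusted p = 4.7e-06), from between 141.2 and 151.7 in medium to between 175.7 and 266.1. Since only 3 of 6 medium arrays were above the background limit, that size is uncertain. Tlr11, which recognises the same protein in mouse, was above the limit on 0 of 6 medium arrays and 5 of 6 IFN-gamma arrays and was at least 1.08-fold higher (adjusted p = 0.0016). It entered the test mainly through those IFN-gamma arrays, so this test is no support for a rise. Tlr8, a relative of Tlr7, was 1.54-fold lower with IFN-gamma (log2 -0.62, adjusted p = 0.0083), but by -1.21, -0.05 and -0.59 in the 3 experiments. Tlr13, which in mouse recognises bacterial ribosomal RNA, was 1.36-fold lower with IL-4 (adjusted p = 0.0066).

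The surface receptors that accompany Toll-like receptors, 7 tested, had 4 genes up and 1 down with IFN-gamma, where 16.9% and 25.1% of all tested genes were. Cd180, a relative of Tlr4 on the cell surface, and Ly86 (MD-1), its partner and a relative of Ly96, were 1.97-fold (adjusted p = 7.4e-06) and 1.43-fold (adjusted p = 0.0034) higher. Cd180 was 1.57-fold lower with IL-4 (adjusted p = 0.0013). The pair Cd180 and Ly86 thus rose with IFN-gamma while Cd14 and Ly96 fell. Mertk, a receptor for apoptotic cells that restrains Toll-like receptor signalling, was 2.82-fold higher with IFN-gamma (adjusted p = 6.3e-06). Itgam, a subunit of complement receptor 3, was 1.57-fold lower with IFN-gamma (adjusted p = 4.7e-06), 1.24-fold higher with IL-4 (adjusted p = 0.0078) and 1.30-fold higher with isoproterenol (adjusted p = 0.011). Itgb2, its partner, was 1.15-fold higher with IL-4 (adjusted p = 0.049), a call lost without the array that stood apart.

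Among 13 genes for folding, trafficking and cleavage of the receptors, 5 fell and 1 rose with IFN-gamma, where 25.1% and 16.9% of all tested genes did. The largest changes were in lysosomal proteases. Without the array that stood apart the rise, that of Cnpy3 (adjusted p = 0.049 with it), was lost, and 6 fell, with Hsp90b1 gained. Endosomal Toll-like receptors are cut by such proteases before they signal. Ctsl (cathepsin L) went from between 1981.9 and 3611.7 in medium to between 353.2 and 468.4 with IFN-gamma, a 7.99-fold fall (log2 -3.00, SE 0.10, adjusted p = 1.7e-09). Ctsk (cathepsin K) fell 3.72-fold (adjusted p = 2.8e-09) and Lgmn (asparagine endopeptidase) 1.63-fold (adjusted p = 6.1e-05). These proteases were thus lower in the same cultures as Tlr7. Slc15a4, a transporter of the endolysosome needed for Tlr7 and Tlr9 responses, was 1.31-fold lower with IFN-gamma (adjusted p = 0.0013) and 1.25-fold lower with IL-4 (adjusted p = 0.021). With IL-4, 2 of the 13 rose and 2 fell: Ctsk was 1.40-fold higher (adjusted p = 0.0013), Slc15a3 1.18-fold higher (adjusted p = 0.049, lost without the array that stood apart) and Rab7b, a small GTPase of late endosomes, 1.26-fold lower (adjusted p = 0.0075). With isoproterenol Ctsl was 1.59-fold higher (adjusted p = 0.01), opposite in direction to IFN-gamma.

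**Figure D4:**
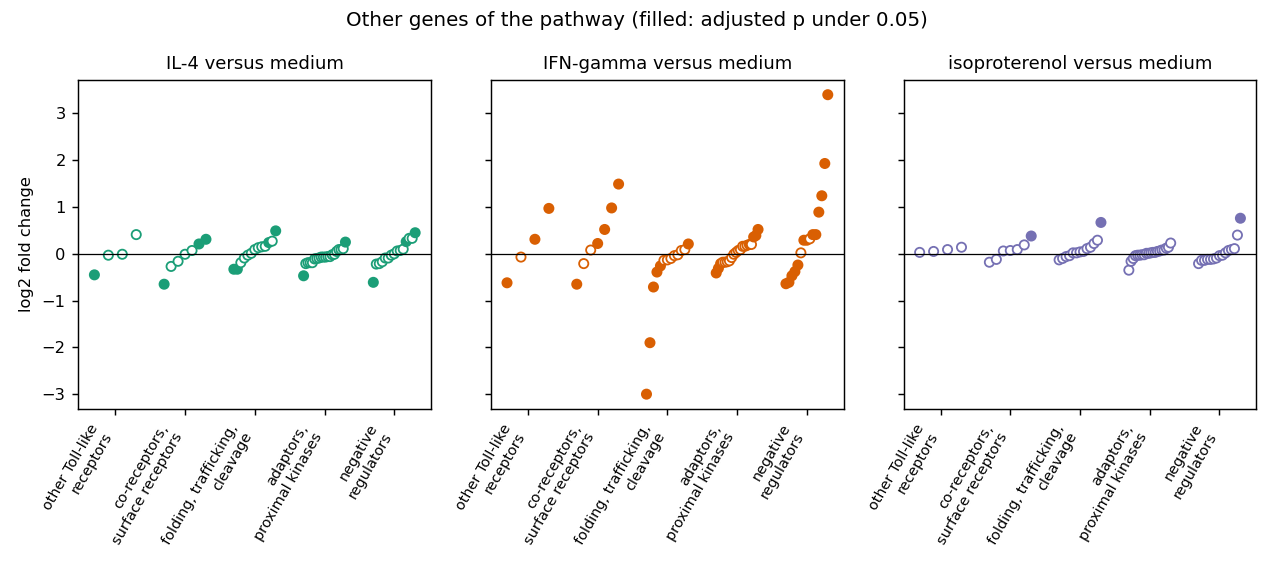
Log2 fold change against medium (vertical axis) of the 59 tested genes of the 5 pathway lists (horizontal axis) with each activator; filled points passed the test. IFN-gamma spans from -3.00 (Ctsl) to 3.40 (Usp18), while the largest isoproterenol value is 0.76 (Dusp1).

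Of 20 tested adaptors and proximal kinases other than Myd88, 4 rose and 3 fell with IFN-gamma, where 16.9% and 25.1% of all tested genes did. Without the array that stood apart 7 rose and 3 fell, with Irak2, Map3k8 and Tbk1 gained. Chuk, a kinase of the NF-kB pathway, was 1.43-fold higher (adjusted p = 2.8e-04), Ticam2 (TRAM), an adaptor of Tlr4, 1.31-fold higher (adjusted p = 0.0038), Ikbke, a kinase that activates interferon regulatory factors, 1.29-fold higher (adjusted p = 0.02) and Ripk1 1.33-fold lower (adjusted p = 3.3e-04). With IL-4, Irak2, a kinase recruited by Myd88, was 1.39-fold lower (adjusted p = 0.0029) and Ikbkg 1.19-fold higher (adjusted p = 0.028, lost without the array that stood apart). With isoproterenol none of the 20 passed limma's test, and 2 had an unadjusted p under 0.05, as did 1150 of all 10363 tested genes.

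The negative regulators included the largest rises of the 59 genes. Of 15 tested, 8 rose and 5 fell with IFN-gamma, where 16.9% and 25.1% of all tested genes did. Without the array that stood apart 9 rose and 3 fell, with Tnip1 and Tnip2 lost and Tnfaip3 gained. Usp18, a protease of the interferon pathway, went from between 372.9 and 472.9 in medium to between 2292.8 and 4808.7, a 10.6-fold rise (log2 3.40, SE 0.11, adjusted p = 8.1e-10). Socs1, an inhibitor of cytokine signalling, rose 3.81-fold (adjusted p = 4.1e-07), Trafd1 2.36-fold (adjusted p = 2.5e-07) and Nfkbia, the inhibitor of NF-kB, 1.86-fold (adjusted p = 2.0e-04). One of the 6 medium arrays of Socs1 was not above the limit, so its fold is uncertain in size. With IL-4, Nfkbiz was 1.52-fold lower (adjusted p = 0.001). It was counted in this list, but whether it restrains the pathway in these cells was not tested. Atf3 was 1.37-fold higher with IL-4 (adjusted p = 0.0011) and Zc3h12a 1.20-fold higher (adjusted p = 0.036, lost without the array that stood apart). With isoproterenol 1 of 15 passed, Dusp1, a phosphatase of MAP kinases, which was 1.69-fold higher (log2 0.76, adjusted p = 0.0019).

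Within the set, Myd88, Tlr1 and Tlr6 followed each other over the 12 experiment values. After each experiment's mean was taken out, Pearson's r was 0.97 for Tlr6 and Myd88, 0.96 for Tlr1 and Tlr6 and 0.91 for Tlr1 and Myd88. Cd14 was closest to Tlr2 within the set (0.86), and Ly96 ran opposite to Tlr1 (-0.89). Over all tested genes outside the set, the pattern most like each gene was that of Ppm1m for Myd88 (0.997), Pstpip2 for Tlr6 (0.991), Cggbp1 for Tlr1 (0.989), Abcb1b for Tlr7 (0.992), Hmox2 for Tlr2 (0.972), Rsph9 for Cd14 (0.985), Syt8 for Ly96 (0.986), Calr for Tlr4 (0.903) and 1700123O20Rik for Tlr3 (0.974). These 12 values share 4 activators and their arrays, so genes that differ in 1 activator alone reach high values together, and the correlations are descriptions only.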

How the data were processed

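RNA of 24 macrophage samples was hybridised to Illumina MouseRef-8 v2.0 bead arrays, read with GenomeStudio per the submitters' processing notes (no version in the sources used here). The deposited values are normalized linear intensities of 18132 genes; the values themselves show quantile normalization (at 98.9% of ranks the 24 sorted values had a coefficient of variation below 1%), which the labels do not state. How probes were joined to genes, the probes' positions and depth per gene are not given in the sources used here, so the number of arrays limits the precision.

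The intensities were corrected with normexp (offset 50), taken to log2 and averaged over the 2 arrays of each experiment and activator. The limma fit (limma 3.58.1, R 4.3.3) had group and experiment as terms, 12 values, 6 residual degrees of freedom and Benjamini-Hochberg adjustment over 10363 genes. These were above 148.23 (the background mode of 136.8 plus 1.645 SD) on at least 6 arrays. The experiment is the pairing: the labels give each experiment all 4 activators. The fit was tested on simulated data. The members, lists and tests were chosen with earlier results of these data known. In each list the genes named are up to 4 with the largest called change per activator, and the closest of the 3 most alike genes is given for each member. Alternatives covered background, filter, averaging, slide, samples, empirical Bayes and left-out experiments. Deposited intensities of 25697 probes in a non-normalized table were not tested, since those probes carry no gene names here.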

Additional observations from a re-analysis of the deposited data

Results flagged for a closer look

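In 36 sets of 6 arrays (9 genes in 4 groups), 3 arrays lay far from the others of their group by Dixon's test for the gap of an extreme value, at its 95% critical value. Chance flags about 1 in 20 sets. The first IFN-gamma array of experiment 1 read 1866.9 for Tlr6, where the other 5 lay between 1391.3 and 1550.2. The same array read 180.5 for Tlr3, where the others lay between 146.5 and 159.2. The first isoproterenol array of experiment 3 read 162.7 for Tlr3, where the others lay between 132.7 and 142.3.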

How the results depend on the processing

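Of 858 comparisons of a gene of the set under an alternative setting, 796 kept their side of the threshold, 49 lost a call and 12 gained one. A change of sign was counted as a turn only where a call was made, and 1 turned so: Tlr4, IL-4 minus IFN-gamma, was -0.003 within slide 2. Values without a call could change sign among the 796, such as Cd14, IL-4 minus IFN-gamma, at 0.23 within slide 2. Against medium, Cd14 (-1.35 to -1.21) and Tlr2 (-1.53 to -1.36) with IL-4, and Cd14 (-1.44 to -0.76), Tlr1 (0.62 to 1.00), Tlr7 (-1.59 to -0.60) and Myd88 (0.49 to 0.71) with IFN-gamma, held their calls under all 16 alternatives. Without the replicate block, that is with no paired experiment term, 3 of 9 genes passed with IL-4 against medium. The number of genes of the set that passed with IL-4 against medium was 2 to 4 with 1 experiment left out, and for IL-4 against IFN-gamma it was 5 to 8. IL-4 against IFN-gamma gave 5 within slide 1, 5 within slide 2 and 5 at a fold of at least 1.5. At that fold IFN-gamma against medium gave 4 and isoproterenol against IFN-gamma 4, and with single arrays isoproterenol against IL-4 gave 6. Leaving out an experiment or keeping 1 slide means fewer samples by construction, and the fold rule is stricter; the cause of the other shifts was not tested.

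Counts over all tested genes moved more. For isoproterenol against medium, 129 became 82 with an offset of 16, 370 with single arrays, 36 with no replicate block, 195 with only those arrays, 12 to 40 without an experiment, 45 at a fold of 1.5 and 0 within slide 1, where 638 had an unadjusted limma p under 0.05. For IL-4 against medium, 784 became 1335 with single arrays, 447 with no replicate block, 147 and 516 within slides 1 and 2, 359 to 465 without an experiment and 222 at a fold of 1.5. For IFN-gamma, 4354 became 2483 within slide 1 and 1316 at that fold. IL-4 against IFN-gamma went from 4451 to 2190 and 1393 in the same settings, and isoproterenol against IFN-gamma from 4643 to 2378 and 1483. Isoproterenol against IL-4 went from 1114 to 1743 with single arrays, 660 with no replicate block, 207 and 740 within slides 1 and 4, 516 to 699 without an experiment and 280 at a fold of 1.5. The planned repeat on the non-normalized probes was not run, since they carry no gene names here, nor was a comparison within slide 3, which holds groups of different experiments. Tlr3, near background, is limited by signal.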
